A study of Arabidopsis thaliana with 16 samples.

Results

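Rubisco activase (RCA) and 9 enzymes of the Calvin cycle's reduction and regeneration steps were followed in Arabidopsis thaliana Col-0 cells grown in light or in the dark. The 10 genes were chosen by their identifiers from the 28598 genes counted, namely RCA (AT2G39730), PGK1 (AT3G12780), FBA1 (AT2G21330), FBA2 (AT4G38970), FBA3 (AT2G01140), the chloroplast fructose-1,6-bisphosphatase (cpFBPase, AT3G54050), the sedoheptulose-1,7-bisphosphatase (SBPase, AT3G55800), TKL1 (AT3G60750), TKL2 (AT2G45290) and RPE (AT5G61410). All 10 passed the filter on low counts, as did 19129 of all genes. RNA was sequenced from 4 light-grown and 4 dark-grown libraries of a dispersed, leaf-derived suspension culture on a medium with sucrose and the auxin 2,4-D. Light-grown cells were under constant light, while dark-grown cells were wrapped in foil for 2 weeks, and the labels give sampling at 16 h for every library. In the study's methods the 16 h counts from the last subculture, not from a change of light. The study's methods also name a 5-day sampling of light-grown cells without stating which libraries it concerns. All cells were wild type, and both groups received sugar from the medium. The study describes its samples as replicate cultures of each growth condition, while its methods also say that cultures were run in duplicate. The number of independent cultures behind the 4 libraries of a condition is thus uncertain. The labels do not tie single libraries to cultures, so the p-values measure the spread between the libraries as labelled.

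The Calvin cycle fixes carbon dioxide on ribulose-1,5-bisphosphate through Rubisco, reduces the product to triose phosphate, and rebuilds the acceptor from part of it. RCA clears inhibitory sugar phosphates from the Rubisco active site. In regeneration, aldolases join trioses, FBPase and SBPase make the path irreversible, transketolases move carbon units between sugars and RPE leads to the acceptor's precursor, while aldolase, transketolase and RPE also serve plastid pathways that need no light.

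Total counts on genes lay between 18363149 and 37813411 per light-grown library and between 29916585 and 32688689 per dark-grown library. Levels are given as CPM, the count of a gene divided by its library's TMM-corrected size, and 3 counts correspond to 0.0779 to 0.159 CPM, a limit that covers counting error only. Of 11 marker genes of guard cells, trichomes, root hairs, vascular tissue and seeds, 6 had at most 5 counts in every library, and GL1, EXPA7, APL and CRA1 were at 0 in all. The others were not silent. COBL9 (root hair) had 91 to 293 counts and MYB60 (guard cell) 20 to 212. XCP1 (xylem) had 35 to 140, FUS3 (seed) 3 to 47 and SUC2 (phloem) 0 to 18. The summed level of the 11 markers was 8.96 to 12.4 CPM in light and 10.8 to 16.9 CPM in the dark. None of the 4 tested was called, which also held for 17217 of the 19129 genes tested. All 95 chloroplast genes are listed at 0 in every library, including the Rubisco large subunit gene rbcL, so that only nuclear genes can be followed. In these bulk samples, fewer cells of a type and less RNA per cell cannot be told apart. Light-RNA4 and Dark-RNA2 often stood nearest to the opposite growth condition for these genes, and values without them are given where they move a result.

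The 10 genes divided into 7 that fell in the dark, 1 that rose by a small amount and 2 that were not called. RCA, FBA1, FBA2, cpFBPase, SBPase, PGK1 and RPE fell, by log2 fold changes of -0.93 for PGK1 to -7.25 for FBA2. The calls were made with the edgeR quasi-likelihood test at an adjusted p-value under 0.05. Over all genes tested, 6.31% were called lower and 3.69% higher in the dark. In all 7 genes that fell, the dark-grown libraries were all under the lowest light-grown one, an arrangement found for 10.1% of all genes tested. The median log2 fold change was -1.80 over the 10 genes and 0.00 over all genes tested. Between 7 and 8 of the 10 genes were called when any 1 library was left out, and the 7 that fell were called lower in every alternative run.

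**Figure D1:**
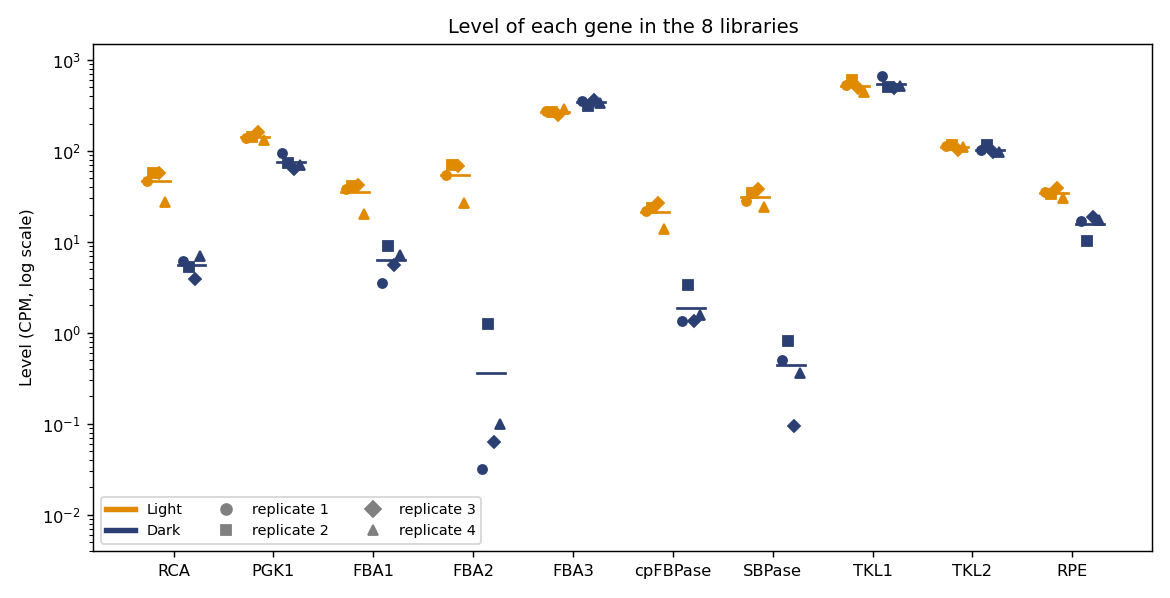
Level (CPM, log scale) of the 10 genes in the 4 light-grown (orange) and 4 dark-grown (blue) libraries, with symbols for the replicate number and lines for the group means. The group means are farthest apart on this scale for FBA2 (means 54.9 and 0.358 CPM) and SBPase (31.2 and 0.445 CPM), and overlap for TKL1 and TKL2.

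RCA was measured at 46.9, 57.5, 57.3 and 27.5 CPM in Light-RNA1 to Light-RNA4. In Dark-RNA1 to Dark-RNA4 it was measured at 6.14, 5.24, 3.89 and 7.03 CPM. The highest dark-grown value was well below the lowest light-grown value, which came from Light-RNA4. RCA fell 8.49-fold, with a log2 fold change of -3.09 ± 0.28 (SE) and an adjusted p of 0.000417 by the edgeR quasi-likelihood test. It lies at chr2:16570746-16573692 on the minus strand (TAIR10.1) with 3 annotated transcripts. The counts are per gene and do not separate its splice forms. The range over leaving out 1 library was -3.27 to -2.94.

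PGK1, a plastid phosphoglycerate kinase that phosphorylates 3-phosphoglycerate, was at 139, 144, 162 and 131 CPM in light. The dark-grown libraries had 94.2, 73.5, 63.0 and 70.8 CPM. The fall was modest and the groups remained apart. It amounted to 1.91-fold (log2 fold change -0.93 ± 0.13, adjusted p = 0.00341, edgeR). PGK2, the other plastid isoform, had a mean of 64.2 CPM in light (SD 9.98, n = 4) against 58.9 CPM in darkness (SD 17.5, n = 4) and was not called (adjusted p = 0.764, edgeR). The log2 ratio of PGK1 to PGK2 within a library was 0.74 to 1.48 in light and 0.15 to 0.66 in the dark. The ratio changed by -0.79 ± 0.20 (SE), with an exact two-sided permutation p of 0.0286, or 0.0333 adjusted over the 7 ratios compared. With 4 libraries against 4, 0.0286 is the smallest p that this test can give.

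The plastid aldolases differed widely: FBA1 and FBA2 fell, while FBA3 had a small rise whose call was close to the threshold. FBA1 was at 38.0, 40.9, 42.0 and 20.1 CPM in light. In the dark it was at 3.56, 8.95, 5.62 and 7.13 CPM. Light-RNA4 was lowest in light and Dark-RNA2 highest in the dark, but the groups stayed apart. The fall was 5.58-fold (log2 fold change -2.48 ± 0.33, adjusted p = 0.00259, edgeR).

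FBA2 had the largest fall of the 10 genes. It was at 54.3, 69.9, 68.5 and 26.9 CPM in light, from 2091, 2353, 1676 and 507 counts. In the dark it had 1, 38, 2 and 3 counts, or 0.0318, 1.24, 0.0628 and 0.0994 CPM. Dark-RNA1, Dark-RNA3 and Dark-RNA4 thus held no more counts than the 3 taken as the limit, and Dark-RNA2 provided nearly all of the dark-grown signal. The fall was 153-fold (log2 fold change -7.25 ± 0.88, adjusted p = 0.00178, edgeR). Without Dark-RNA2 the log2 fold change was -9.65, a value that rests on very few dark-grown counts and depends on the prior count of the fit.

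FBA3 went the other way. It was at 275, 270, 246 and 293 CPM in light. The dark-grown libraries had 357, 310, 362 and 340 CPM. Every dark-grown library was above every light-grown library, an arrangement found for 6.5% of all genes tested. The rise was 1.26-fold (log2 fold change 0.34 ± 0.09, adjusted p = 0.0464, edgeR). This call is close to the threshold: over leaving out 1 library the adjusted p ranged from 0.0201 to 0.147, and it was lost on leaving out Light-RNA1, Light-RNA2, Light-RNA3, Dark-RNA1, Dark-RNA3 or Dark-RNA4, and under 5 other settings.

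The ratios between aldolases within each library were compared to give the size of the difference in response between the genes. FBA1 relative to FBA2 moved from a log2 ratio of -0.77 to -0.41 in light to 2.44 to 3.67 in the dark. FBA1 was thus below FBA2 in counts in every light-grown library and above it in every dark-grown library. The change was 3.72 ± 0.29 (SE, exact permutation p = 0.0286, adjusted p = 0.0333). FBA1 relative to FBA3 changed by -2.74 ± 0.42, and FBA2 relative to FBA3 by -6.46 ± 0.58, each with the same exact permutation p of 0.0286 and adjusted p of 0.0333. For each of these aldolase ratios the p was fixed by the values above and adds no support of its own. For FBA1 relative to FBA2, the values of each gene left no room for the conditions to overlap. For the ratios to FBA3, every dark-grown library was below every light-grown one for FBA1 and FBA2, and above for FBA3. The ratios used CPM plus 0.5. The size of the FBA2 ratios depends on that pseudocount. The change in FBA2 relative to FBA3 was -4.87 with 2 CPM added and -7.89 with 0.1 CPM added, and the change in FBA1 relative to FBA2 lay between 2.38 and 5.07 over all alternatives.

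Per length of exon, FBA1, FBA2 and FBA3 summed to 196 CPM per kb in light (SD 9.26, n = 4) against 191 in darkness (SD 11.5, n = 4). The sum in each library was 200, 207, 194 and 185 in light, and 197, 175, 201 and 190 in the dark, so the groups overlapped. What differed was the make-up of the sum. FBA3 took 75.6% ± 7.65 of it in light and 98.2% ± 0.859 in the dark. FBA1 went from 8.72% to 1.65% and FBA2 from 15.7% to 0.114%. With the cytosolic aldolases FBA4 to FBA8 included, the plastid genes held 31.6% ± 2.19 of the aldolase sum in light and 29.5% ± 4.93 in the dark. Dark-RNA2 had the lowest plastid share, 22.1%. These sums are descriptions without a test.

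**Figure D2:**
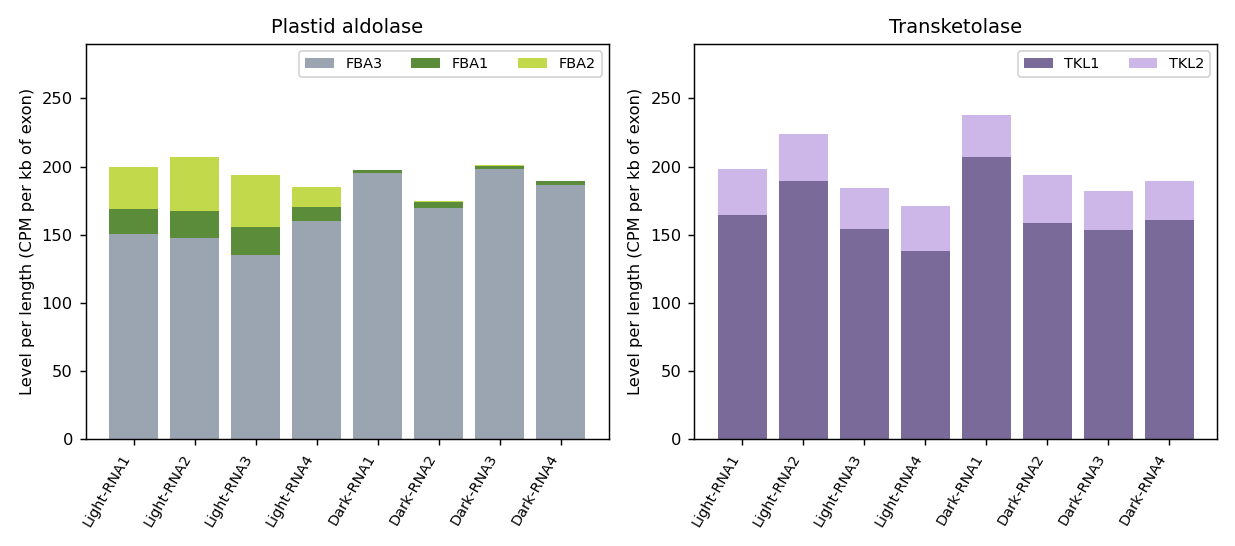
Level per length (CPM per kb of exon) of the plastid aldolases (left) and the transketolases (right), stacked by gene, in each of the 8 libraries. The aldolase totals lie between 175 and 207 in both conditions while FBA2 and FBA1 nearly vanish from the dark-grown bars, and the transketolase bars keep their make-up, with TKL1 at 80.7% to 87.2% in every library.

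Of the bisphosphatases, cpFBPase splits fructose-1,6-bisphosphate and SBPase splits sedoheptulose-1,7-bisphosphate, and both proteins are known as targets of thioredoxin in light. cpFBPase was at 21.9, 23.6, 26.8 and 13.9 CPM in light. Values in the dark were 1.34, 3.35, 1.35 and 1.56 CPM. Dark-RNA2 stood above the other dark-grown libraries but far below the lowest light-grown value. The fall was 11.3-fold (log2 fold change -3.50 ± 0.36, adjusted p = 0.000743, edgeR), and -3.93 at most on leaving out 1 library. Of the exon bases of cpFBPase, 9.44% overlap AT3G54060 on the opposite strand, which had 25 to 105 counts in these libraries. The use of strand in counting is not given in the sources used here, so the dark-grown counts of cpFBPase, 42 to 103, may include reads of its neighbour.

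SBPase was at 28.3, 34.4, 37.9 and 24.1 CPM in light. In the dark it had 16, 25, 3 and 11 counts, or 0.509, 0.814, 0.0942 and 0.365 CPM. The dark-grown libraries were thus low without exception, and Dark-RNA2 was again the highest. The fall was 69.6-fold (log2 fold change -6.12 ± 0.47, adjusted p = 0.000233, edgeR). SBPase fell further than cpFBPase: the log2 ratio of cpFBPase to SBPase rose from between -0.77 and -0.37 in light to between 0.86 and 1.64 in the dark. This change was 1.87 ± 0.19 (SE, exact permutation p = 0.0286, adjusted p = 0.0333). Its size depends on the pseudocount, and was 1.16 with 2 CPM added and 2.52 with 0.1 CPM added. The p was fixed by the values above, which leave no room for the groups to overlap, and adds no support of its own.

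The cytosolic FBPase, an enzyme of sucrose synthesis, had a mean of 17.3 CPM in light (SD 2.08, n = 4) against 11.1 CPM in darkness (SD 1.77, n = 4). Its log2 fold change was -0.64 ± 0.15 (adjusted p = 0.0278, edgeR). This call was lost on leaving out Light-RNA1, Light-RNA2, Light-RNA3, Dark-RNA3 or Dark-RNA4, with edgeR adjusted p-values for cytosolic FBPase of 0.0508 to 0.0944. cpFBPase relative to it changed by -2.61 ± 0.43 (exact permutation p = 0.0286, adjusted p = 0.0333). The cytosolic gene lay between 9.18 and 19.5 CPM in all libraries. The p was thus fixed by the fall of cpFBPase given above and adds no support of its own. Per length of exon, cpFBPase made up 55.1% ± 7.73 of the fructose bisphosphatase sum in light and 14.7% ± 9.20 in the dark. The cytosolic gene held 65.6% ± 4.05 in the dark. The rest came from a further plastid FBPase (AT5G64380), at 8.43% ± 1.42 in light and 19.6% ± 7.49 in the dark. The sum itself went from 23.4 to 8.14 CPM per kb.

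**Figure D3:**
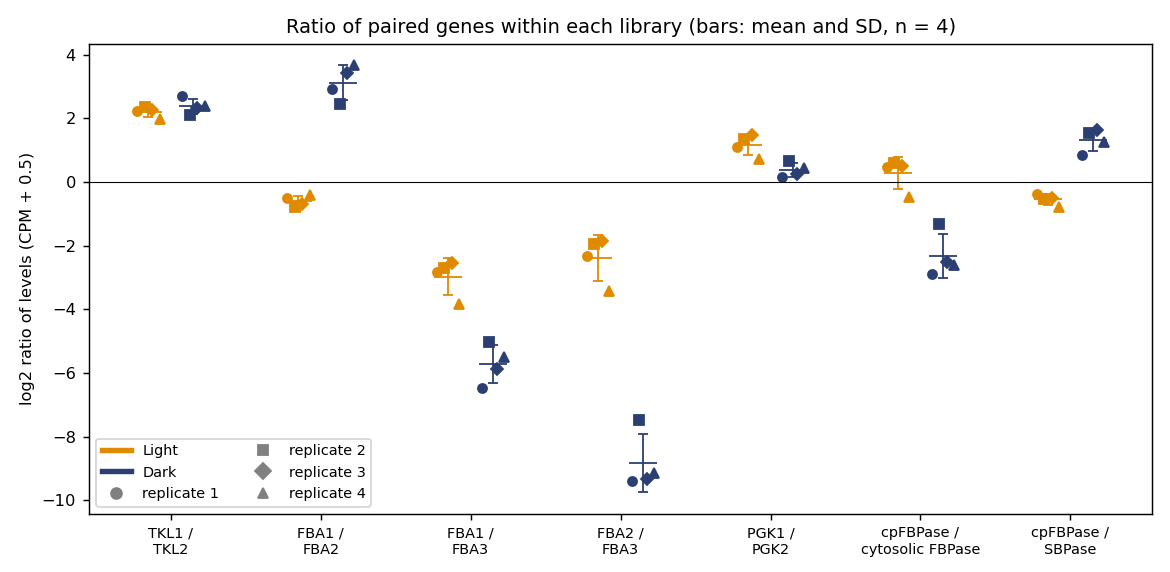
Log2 ratio of the levels (CPM + 0.5) of paired genes within each light-grown (orange) and dark-grown (blue) library, with the mean and SD of 4 libraries. The groups are apart for 6 of the 7 pairs and overlap for TKL1 and TKL2, where the change was 0.17.

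The transketolases were at high level in both conditions. TKL1 was at 526, 604, 492 and 441 CPM in light and 662, 507, 490 and 513 CPM in the dark. The groups overlapped, and Dark-RNA1 was the highest of all. The log2 fold change was 0.07 ± 0.14 (adjusted p = 0.790, edgeR), and it lay between -0.03 and 0.16 on leaving out 1 library. TKL2 was at 112, 116, 102 and 111 CPM in light and 102, 117, 96.8 and 98.0 CPM in darkness. The log2 fold change of TKL2 was -0.09 ± 0.09 (adjusted p = 0.590, edgeR), and its light-grown libraries had the smallest relative spread of the 10 genes, with a coefficient of variation of 5.61%. The ratio of TKL1 to TKL2 changed by 0.17 ± 0.15 (exact permutation p = 0.343, also after adjustment). A p above the threshold does not show that the levels were equal.

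RPE, the plastid ribulose-phosphate 3-epimerase, was at 35.0, 33.2, 39.0 and 30.3 CPM in light. Values in the dark were 17.0, 10.3, 18.7 and 17.6 CPM. Here Dark-RNA2 was the lowest dark-grown library, unlike in FBA2, cpFBPase and SBPase. The fall was 2.16-fold (log2 fold change -1.11 ± 0.19, adjusted p = 0.00697, edgeR). The cytosolic epimerase genes AT1G63290 and AT3G01850 had log2 fold changes of 0.05 ± 0.10 and 0.22 ± 0.12 and were not called. Per length, RPE went from 27.7% ± 2.82 to 14.4% ± 3.51 of the epimerase sum.

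On TAIR10.1 the other genes lie on 4 chromosomes. PGK1 is at chr3:4060920-4063306 (minus strand), SBPase at chr3:20709294-20711640 (plus), cpFBPase at chr3:20016837-20018822 (plus) and TKL1 at chr3:22453668-22457458 (plus). FBA1 is at chr2:9128122-9130619 (minus), FBA3 at chr2:94727-96863 (minus) and TKL2 at chr2:18672497-18676484 (plus). FBA2 is at chr4:18163496-18166008 (minus) and RPE at chr5:24683606-24686217 (minus). Annotated neighbours overlap RCA, PGK1 and FBA3 by 3, 25 and 27 exon bases, at most 1.48% of the gene's exon length.

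The order of levels per length of exon differed between the conditions. In light TKL1 (161 ± 21.5 CPM per kb, SD, n = 4) and FBA3 (148 ± 10.5) led, and their difference was within the spread. PGK1 followed at 79.1 ± 7.31, and the other 7 genes lay between 32.8 (TKL2) and 13.0 (cpFBPase). Among these, each gene and its neighbour in the order, TKL2, FBA2, RPE, RCA, SBPase, FBA1 and cpFBPase, differed by less than the larger of their SDs. In the dark FBA3 (187 ± 12.7) and TKL1 (170 ± 25.1) still led without a difference beyond the spread, followed by PGK1 (41.4 ± 7.33), TKL2 (30.8 ± 2.82) and RPE (10.5 ± 2.49). FBA1 (3.09 ± 1.12) and RCA (2.65 ± 0.636) were within each other's spread, as were SBPase (0.255 ± 0.172) and FBA2 (0.202 ± 0.332) at the end of the order, with cpFBPase (1.15 ± 0.590) between these pairs. Among the tested genes with an exon length, FBA2 went from percentile 81.5 to 2.14 and RCA from 75.1 to 23.2, whereas TKL1 stayed at 97.1.

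Libraries of one condition differed in a repeated way across these genes. Light-RNA4 was the lowest light-grown library for all 7 genes that fell, with a median log2 difference of -0.76 from the other light-grown libraries. Dark-RNA2 was the highest dark-grown library for 4 of the 7, FBA1, FBA2, cpFBPase and SBPase, with a median log2 difference of 0.67. For FBA3, which rose, Light-RNA4 was the highest light-grown and Dark-RNA2 the lowest dark-grown library. Light-RNA4 was also the shallowest library, at 18363149 counts, and the part of depth in this pattern was not tested. With both libraries left out, a setting chosen after seeing the data, the 7 genes that fell were still called lower.

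**Figure D4:**
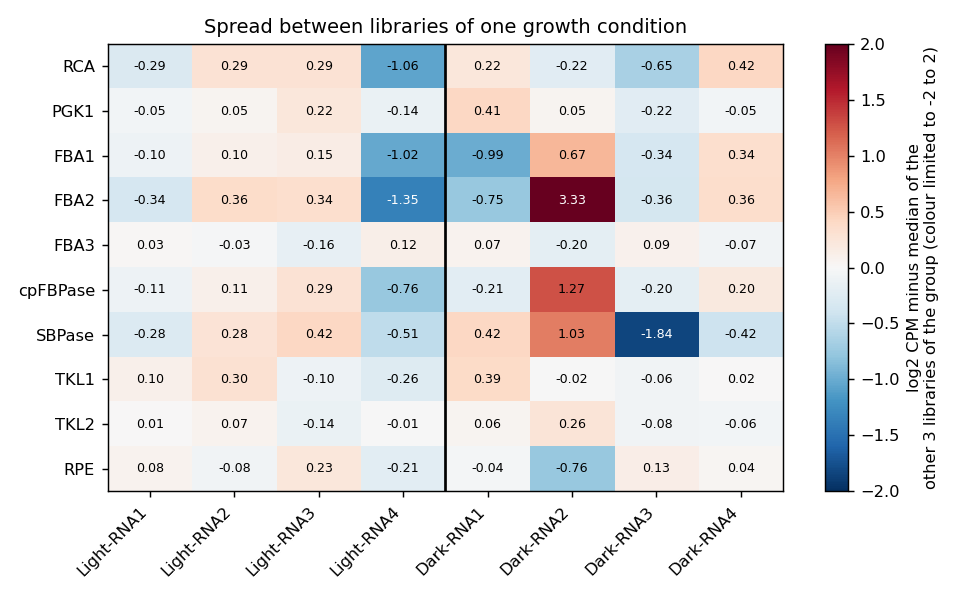
Log2 level of each gene in each library minus the median of the other 3 libraries of the same condition, in numbers and colour. Light-RNA4 is at -1.06 for RCA and -1.35 for FBA2, and Dark-RNA2 at 3.33 for FBA2 and 1.27 for cpFBPase.

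The bases just before the annotated start of 3 genes are shown to set a gene that fell and holds known light-regulatory letters beside the gene with the largest fall and a gene that was not called. The windows searched ran from 250 bases before to 50 bases after the RefSeq start (TAIR10.1), on both strands, for the G-box CACGTG, the I-box GATAAG and the evening element AAAATATCT. Each sequence gives the 250 bases before the start, 5′ to 3′ on the gene's strand, with matches in capitals.
cpFBPase, chr3:20016587-20016836, plus strand: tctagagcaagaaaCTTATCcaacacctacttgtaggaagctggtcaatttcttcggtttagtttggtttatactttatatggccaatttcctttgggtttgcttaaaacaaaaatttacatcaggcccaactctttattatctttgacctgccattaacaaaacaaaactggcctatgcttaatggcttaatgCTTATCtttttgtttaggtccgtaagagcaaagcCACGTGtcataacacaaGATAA
FBA2, chr4:18166009-18166258, minus strand: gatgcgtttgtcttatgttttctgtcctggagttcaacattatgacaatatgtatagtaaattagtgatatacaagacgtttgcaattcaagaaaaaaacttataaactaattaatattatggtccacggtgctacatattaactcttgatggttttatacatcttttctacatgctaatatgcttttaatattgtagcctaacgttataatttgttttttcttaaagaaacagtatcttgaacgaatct
TKL2, chr2:18672247-18672496, plus strand: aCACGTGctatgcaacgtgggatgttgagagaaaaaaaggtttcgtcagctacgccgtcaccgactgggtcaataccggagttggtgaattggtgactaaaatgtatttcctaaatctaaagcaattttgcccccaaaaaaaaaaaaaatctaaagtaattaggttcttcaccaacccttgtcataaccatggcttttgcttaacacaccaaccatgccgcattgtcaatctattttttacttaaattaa
The window of cpFBPase held a G-box at -22 and I-boxes at -236, -56 and -5, counted from the first transcribed base, and the last I-box runs 1 base past the sequence shown. That of FBA2 held none of the motifs, and that of TKL2 held a G-box at -249. Of the other genes, RCA had an I-box at -133 and TKL1 an evening element starting at base 2 of the transcript. PGK1, SBPase, FBA1, FBA3 and RPE had no match. Of the 27367 nuclear protein-coding genes searched in the same way, 7.68% held a G-box, 14.6% an I-box and 2.82% an evening element. A match, or its absence, describes the letters of these windows only.

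The other Calvin cycle genes were counted from a list to place the 10 genes in their pathway. Of 15 listed, 13 were tested, with a median log2 fold change of -2.65. Of those tested, 7 fell (53.8%, against 6.31% of all genes tested). None rose, where 3.69% of all genes tested were called higher. The glyceraldehyde-3-phosphate dehydrogenase subunits GAPA1 (-5.02), GAPA2 (-6.47) and GAPB (-6.87), which carry out the reduction after PGK, and phosphoribulokinase (PRK, -6.06), which makes the Rubisco substrate, fell. The small-subunit genes RBCS1A (-6.09) and RBCS3B (-9.50) and the linker CP12-1 (-2.65) also fell. RBCS3B is uncertain, since RBCS1B or RBCS2B hold the same letters as 16.5% of its 50-base exon stretches. PGK2, the plastid triose-phosphate isomerase (-0.29), RPI3 (-0.27), a further plastid FBPase (AT5G64380, -0.30), CP12-2 and CP12-3 were not called. None of the 50-base exon stretches of the 10 genes themselves occurs elsewhere in the genome.

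Of the Rubisco assembly genes, 10 of 11 were tested, with a median log2 fold change of -0.74. Of those tested, 5 fell (50%, against 6.31% of all genes tested) and none rose (against 3.69%). Among those that fell were the assembly factors RAF2 (-2.05 ± 0.35) and BSD2 (-2.04 ± 0.45) and the chaperonin subunit CPN60B1 (-0.72 ± 0.18). CPN60A1, CPN60B2, CPN60B3, CPN20 and RBCX2 were not called. The calls of BSD2 and CPN60B1 were lost on leaving out Light-RNA1, Light-RNA2, Light-RNA3, Dark-RNA3 or Dark-RNA4, with edgeR adjusted p-values of 0.0615 to 0.0829 for BSD2 and 0.0756 to 0.114 for CPN60B1. This count ranged from 3 to 8 on leaving out 1 library.

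The cytosolic counterparts of these enzymes had a median log2 fold change of -0.03. Of the 13 tested of 14 listed, 2 fell, the cytosolic FBPase and the ribose-5-phosphate isomerase RPI2 (-1.14 ± 0.21, adjusted p = 0.0101, edgeR), and none rose. The falls are 15.4% of those tested, against 6.31% lower and 3.69% higher over all genes tested. Counts this small are not read as a trait of the list. RPI2 was called in all 17 alternatives, whereas the cytosolic FBPase lost its call without any 1 of the 5 libraries named above. FBA8 (0.13), FBA6 (0.16), PGK3 (0.16), GAPC1 (-0.24) and GAPC2 (-0.04) were not called. FBA7 had a log2 fold change of -2.25 ± 0.68 and was not called (adjusted p = 0.0753, edgeR).

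The list of oxidative pentose phosphate genes mixed plastid and cytosolic isoforms and included transaldolases. Of these genes, 14 of 16 were tested, with a median log2 fold change of 0.26. Of those tested, 2 fell (14.3%, against 6.31% of all genes tested) and 4 rose (28.6%, against 3.69%). G6PD1, a plastid glucose-6-phosphate dehydrogenase, fell by 3.60 ± 0.53 on the log2 scale (adjusted p = 0.00415, edgeR), from 93.3 to 7.70 CPM. G6PD5, a cytosolic isoform, fell by 0.83 ± 0.11. The plastid isoforms G6PD2 (0.63 ± 0.12) and G6PD3 (0.80 ± 0.21), the 6-phosphogluconate dehydrogenase PGD1 (0.65 ± 0.14) and transaldolase 2 (0.98 ± 0.19, 201 to 397 CPM) rose. Without Light-RNA3 none of these rises was called, with edgeR adjusted p-values of 0.0503 for G6PD2, 0.122 for G6PD3, 0.0737 for PGD1 and 0.0565 for transaldolase 2. The PGD1 call was also lost without Light-RNA1 or Dark-RNA3 and with only the 4 libraries paired with MNase-seq. The G6PD3 call, at an adjusted p of 0.0445 with all libraries, was lost in 9 of 17 alternatives. G6PD1 and G6PD5 were called lower in all 17. The count of called genes ranged from 2 to 7 on leaving out 1 library.

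**Figure D5:**
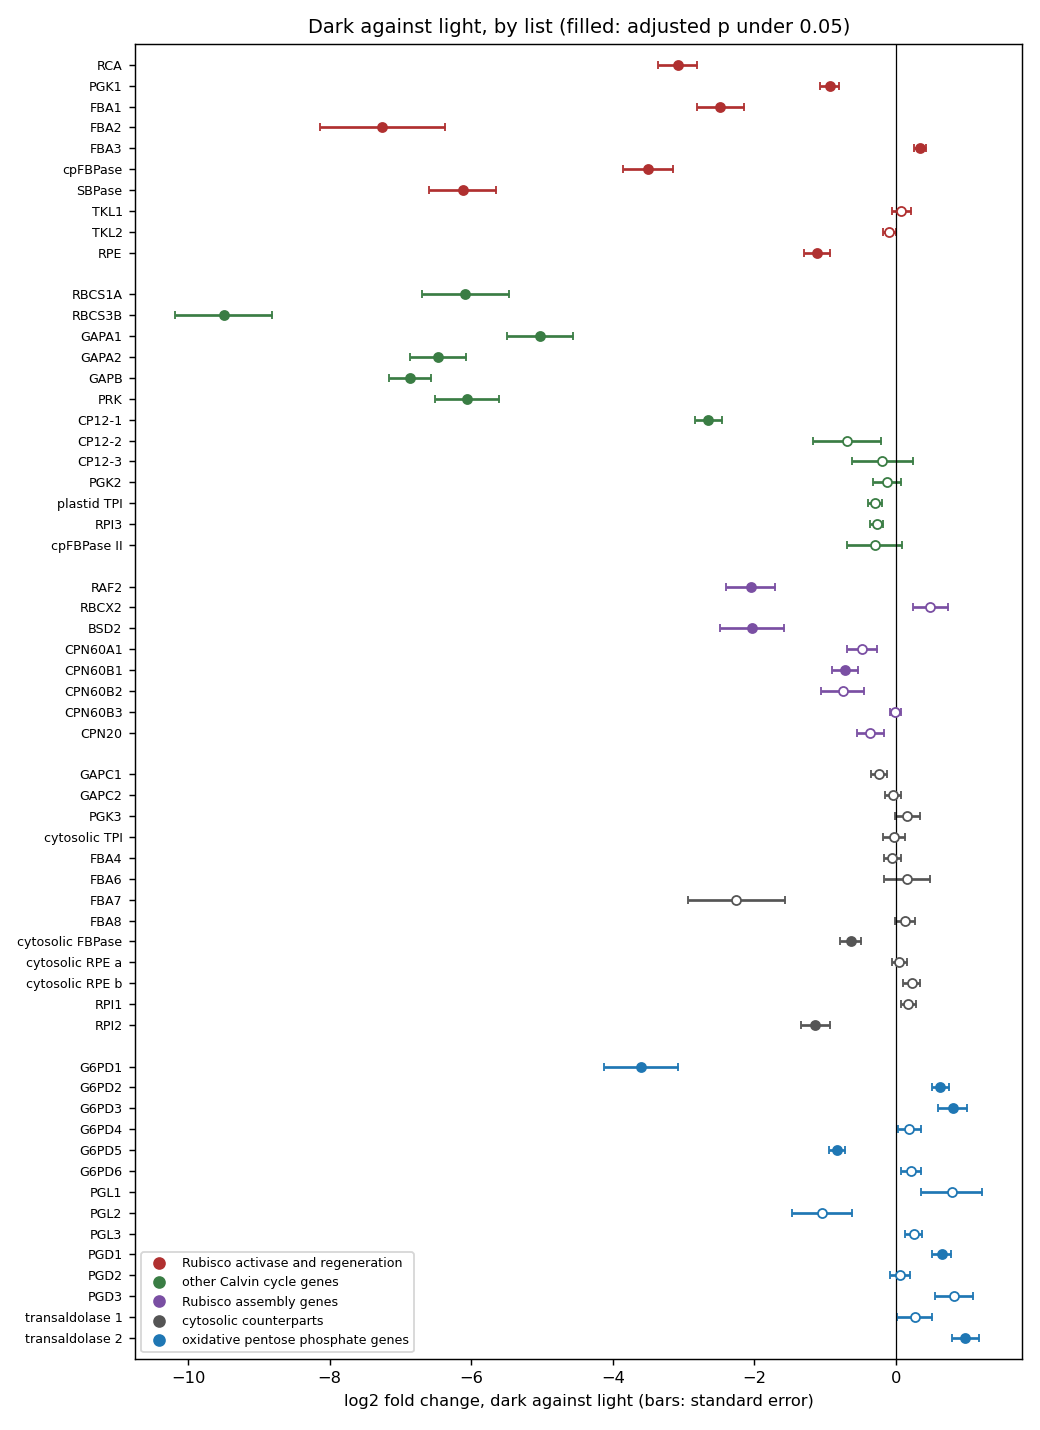
Log2 fold change in the dark against light with its standard error for the 10 genes and for tested genes of the other lists, with some Rubisco assembly genes not shown, filled where the adjusted p was under 0.05. The 10 genes run from -7.25 (FBA2) to 0.34 (FBA3), and the cytosolic counterparts lie near 0 apart from FBA7 (-2.25), RPI2 (-1.14) and cytosolic FBPase (-0.64).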

How the data were processed

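RNA was sequenced as paired-end reads from 4 light-grown and 4 dark-grown libraries. The authors used TopHat2 for mapping to the TAIR10 genome, took gene models from Araport11, and obtained a count per gene from HTSeq. The deposited values used here are these whole-number counts, without normalization. Versions, counting mode and use of strand are not given in the sources used here. A second table holds the authors' own edgeR comparison (log2 fold changes, log2 CPM, p-values and FDR) and was not used. MNase-seq was not analysed here. The count columns were matched to libraries by the numbered column names in the labels.

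Counts were fitted in R 4.3.3 by edgeR 4.0.16 using TMM factors, filterByExpr (minimum count 10, minimum total 15), robust quasi-likelihood fits without covariates, and Benjamini-Hochberg adjustment over 19129 genes. Standard errors are the absolute log2 fold change over the root of the F statistic. Ratios of 2 genes used log2 of CPM plus 0.5 and an exact two-sided permutation test. Levels per length divide CPM by the merged exon length of the TAIR10.1 RefSeq annotation, available for 19074 of the tested genes. Likeness is the root mean square difference of centred log2 CPM (prior count 2). Alternatives were other normalizations and filters, DESeq2 1.42.0, edgeR's exact test, the replicate number as a block, libraries left out, and other pseudocounts. Python 3.11.15, pandas 2.3.3 and matplotlib 3.10.9 made summaries and figures. The 10 genes, the lists, the ratios and the motifs were chosen with earlier results of these data known. The rule for naming was all 10 genes, any gene of the lists, and the 5 genes nearest to RCA and to TKL2 in likeness. Total counts per library set the precision of low values, since 3 counts are 0.0779 to 0.159 CPM. The main fit did not pair libraries by replicate number. The deviation correlations of same-numbered libraries, -0.14, 0.58, -0.03 and 0.22, do not settle whether the numbers pair them. Some genes of the Rubisco assembly list are counted in its totals but not reported here by name.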

Additional observations from a re-analysis of the deposited data

Results flagged for a closer look

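The highest or lowest library stood far from the other 3 of its condition in 5 of the 34 groups of 4 libraries examined. Chance gives about 1 in 20 for independent groups. These groups are not independent, since the ratios reuse the levels of the same genes. cpFBPase was at 3.35 CPM (103 counts) in Dark-RNA2, against 1.34 to 1.56 in the other dark-grown libraries. FBA2 was at 1.24 CPM (38 counts) in Dark-RNA2, against 0.0318 to 0.0994. The log2 ratio of FBA2 to FBA3, which reuses that FBA2 value, was -7.48 in Dark-RNA2, against -9.39 to -9.15. The log2 ratio of cpFBPase to cytosolic FBPase was -0.47 in Light-RNA4, against 0.48 to 0.59 in the other light-grown libraries. TKL1 was at 662 CPM in Dark-RNA1, against 490 to 513. The values of Dark-RNA2 and Light-RNA4 lie toward the opposite growth condition, and their cause was not tested.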

How the results depend on the processing

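The 7 genes that fell kept their direction and their call in every alternative run. FBA3 kept its direction but lost its call in 11 of 17 alternatives, with adjusted p-values of 0.0907 with library totals only, 0.0608 with no filter on low counts, 0.0543 with CPM above 1 in at least 4 libraries and 0.0578 with edgeR's exact test. TKL1 changed sign between alternatives and was never called. The 7 ratios kept their direction and side of the threshold in the alternatives that could be tested, and without 1 library the smallest exact p is 0.0571, so those are values only. On leaving out 1 library, called genes ranged from 3 to 8 for Rubisco assembly, 1 to 3 for the cytosolic counterparts and 2 to 7 for the oxidative pentose phosphate genes. With only the 4 libraries that the study pairs with MNase-seq (numbers 2 and 3 in light, 3 and 4 in the dark), 8 Rubisco assembly genes were called, all lower. In that run 4 cytosolic counterparts were called, 3 lower and 1 higher. With Light-RNA4 and Dark-RNA2 both left out, a setting chosen after seeing the data, 9 Rubisco assembly genes were called, 8 lower and 1 higher. With the replicate number as a block, FBA3 had a log2 fold change of 0.34 and an adjusted p of 0.0902, and no other call among the 10 genes changed. The block gave 1358 genes lower and 863 higher, against 1207 and 705 without it, and whether the replicate numbers pair the libraries is not settled. Over all genes, DESeq2 called 1776 lower and 1421 higher, the 4 libraries 2896 and 2491, both libraries left out 2431 and 2419, and single libraries left out 689 to 1669 lower and 273 to 1204 higher. No scaling moved the median log2 fold change of all genes by over 0.1. Depth limits FBA2 and SBPase in the dark, where single libraries held as few as 1 and 3 counts.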

Other observations

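The 5 tested genes with the pattern most like that of RCA over the 8 libraries, by the root mean square difference of centred log2 CPM among 19119 genes, were PHT2;1 (AT3G26570, 0.206), CHR42 (0.241), AT2G26500 (0.252), PSBQA (0.256) and PHOT1 (0.266). PHT2;1 had a log2 fold change of -3.17 and went from 35.0 to 3.88 CPM, and PSBQA, a subunit of the photosystem II oxygen-evolving complex, had -3.12 and went from 46.6 to 5.35 CPM. CHR42 was at less than 1 CPM in both conditions. Among the other 9 genes, FBA1 (0.503) and cpFBPase (0.505) were nearest to RCA and FBA2 (2.62) was farthest.

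The 5 nearest to TKL2 were AT2G07671 (0.0202), AT2G33410 (0.0387), AT2G39960 (0.0398), AT3G59500 (0.0398) and AT5G13440 (0.0447). All 727 exon windows of 50 bases in AT2G07671 also occur elsewhere, including in the mitochondrial genome, so its value is uncertain. TKL1 lay at 0.197 from TKL2 and FBA3 at 0.259.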
